A study of Mus musculus with 120 samples.

Results

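The mouse Cyp4a genes encode cytochrome P450 enzymes of the endoplasmic reticulum that hydroxylate the terminal (omega) carbon of fatty acids. The 6 members described here, Cyp4a10, Cyp4a14, Cyp4a31, Cyp4a32, Cyp4a12a and Cyp4a12b, were chosen by symbol and are 6 of the 24882 complete rows of the deposited expression table. They were measured by RNA sequencing in livers of 10 strains of the Collaborative Cross, inbred lines that each mix the genomes of several founder strains. These were CC060, CC043, CC042, CC041, CC040, CC032, CC019, CC013, CC011 and CC003. Females and males of each strain received for 12 weeks either a high-fat, high-sucrose (HF/HS) diet or a control diet. In the HF/HS diet, milkfat rich in palmitic acid supplied 42% of the energy, cholesterol made up 0.2% and sucrose more than 30%. The control diet was made from matched ingredients with little fat and less sucrose. No label names an edited gene or an age. The labels name 3 libraries for each of the 40 strain, sex and diet groups, and none says that the 3 came from separate animals, so a p-value here speaks only to how these libraries spread, which may be technical.

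Omega-hydroxylation is the first step of a route that turns long fatty acids into dicarboxylic acids, which peroxisomes then shorten. The route is minor in a fed liver and gains weight when fatty acids are plentiful. Cyp4a10 and Cyp4a14 are classic target genes of PPAR-alpha, the nuclear receptor that fatty acids and fibrate drugs activate. Cyp4a12a is known as the male-biased member in mouse liver and kidney, under androgens and growth hormone, and its product also makes 20-HETE, a vasoactive lipid, from arachidonic acid.

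The 6 genes lie in 1 cluster on chromosome 4 of mm10. From low to high coordinates these are Cyp4a12a (chr4:115299046-115332815), Cyp4a12b (chr4:115411624-115439034), Cyp4a14 (chr4:115486200-115496141), Cyp4a10 (chr4:115518287-115533649), Cyp4a31 (chr4:115563649-115579015) and Cyp4a32 (chr4:115600938-115622366). Cyp4a14 is on the minus strand and the other 5 are on the plus strand. In the longest coding models of GENCODE M21 for this build, coding length without the stop codon was 1521 to 1527 bases. Cyp4a12a and Cyp4a12b shared 98.5% of aligned coding bases. Cyp4a10 shared 96.6% with Cyp4a31 and 97.2% with Cyp4a32, and 75.6% with Cyp4a14. The members therefore fall into the pair Cyp4a12a and Cyp4a12b, the trio Cyp4a10, Cyp4a31 and Cyp4a32, and Cyp4a14 alone.

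The stretch around the codon of the cysteine that holds the haem iron, the reactive centre of a P450, shows these 3 sets. It is 60 bases long, starts at coding base 1339 of Cyp4a10 and crosses an intron in the genome. Capitals mark bases that differ from Cyp4a10. Cyp4a31 and Cyp4a32 have the letters of Cyp4a10 here, and Cyp4a12b has those of Cyp4a12a.
Cyp4a10: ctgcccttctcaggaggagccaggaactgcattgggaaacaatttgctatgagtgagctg
Cyp4a12a: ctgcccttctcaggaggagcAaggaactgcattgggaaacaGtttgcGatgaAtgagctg
Cyp4a14: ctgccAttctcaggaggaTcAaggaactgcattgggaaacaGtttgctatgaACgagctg

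The first 20 codons after the start codon, within the first coding exon, differ most between the sets. Here Cyp4a12a differs from Cyp4a10 at 16 of 60 bases and Cyp4a14 at 26 (capitals), so reads from this end tell the 3 sets apart. The stretches are at chr4:115518325-115518384 (Cyp4a10, plus strand), chr4:115299131-115299190 (Cyp4a12a, plus strand) and chr4:115496051-115496110 (Cyp4a14, minus strand).
Cyp4a10: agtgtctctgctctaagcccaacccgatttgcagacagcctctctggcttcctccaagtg
Cyp4a12a: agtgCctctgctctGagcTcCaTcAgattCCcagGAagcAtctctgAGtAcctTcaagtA
Cyp4a14: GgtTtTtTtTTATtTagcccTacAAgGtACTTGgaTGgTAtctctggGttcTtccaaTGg

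Within a set far fewer bases separate the genes. The next stretches were the ones that best separate the near-identical members, with capitals at the bases that differ within the set. Cyp4a12a and Cyp4a12b differ at 4 of 60 bases from coding base 625, across an exon boundary. Cyp4a10 (chr4:115519654-115519713), Cyp4a31 (chr4:115565034-115565093) and Cyp4a32 (chr4:115602284-115602343) vary at 9 of 60 bases from coding base 214, all on the plus strand.
Cyp4a12a, coding base 625: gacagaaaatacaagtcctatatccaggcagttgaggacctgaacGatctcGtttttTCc
Cyp4a12b, coding base 625: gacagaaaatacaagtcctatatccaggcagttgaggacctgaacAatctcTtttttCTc
Cyp4a10, coding base 214: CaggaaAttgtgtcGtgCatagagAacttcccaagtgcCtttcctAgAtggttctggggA
Cyp4a31, coding base 214: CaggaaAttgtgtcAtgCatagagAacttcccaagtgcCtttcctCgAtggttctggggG
Cyp4a32, coding base 214: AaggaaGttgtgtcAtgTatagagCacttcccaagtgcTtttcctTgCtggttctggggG

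The share of 75-base windows of a coding sequence that another member's transcript also held was 45.9% for Cyp4a12a and Cyp4a12b, 26.6% for Cyp4a10, 22.2% for Cyp4a31, 30.4% for Cyp4a32 and 0% for Cyp4a14. Reads from shared windows cannot be assigned to 1 gene. How the authors' processing split them was not given in the sources used here, so values of Cyp4a10, Cyp4a31 and Cyp4a32, and of Cyp4a12a and Cyp4a12b, are uncertain against each other and firmer as sets.

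The deposited values are FPKM-like, that is, per transcript length, and were rescaled by the authors so that the 75th percentile of every library was close to 10. Depth is unknown and no counting interval can be given. In CC040, female control library 3 and female HF/HS library 1 were identical in every one of 24883 rows. Both were left out, which left 59 libraries per diet and 2 female CC040 libraries on each. Values of CC003 libraries summed to 3192062 to 4629890 units against 926949 to 1986963 in other strains. Libraries of CC060 were set apart by earlier results of these data, not by a value shown here. Tests of control levels between strains therefore used the other 8. Hepatocyte markers summed to 21693 to 118620 units per library, and each of 5 kidney markers, from the other main Cyp4a tissue, had a median of 0 over all libraries kept. Tests used limma on log2(value + 1) over 12205 genes with a mean of at least 1, and all 6 members were tested. A gene is called at a Benjamini-Hochberg adjusted p under 0.05, and "rose", "higher" and "lower" in a tested comparison refer to called genes. Differences are on the log2(value + 1) scale, which understates changes of low values. In bulk liver, fewer expressing cells and less RNA per cell cannot be told apart.

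By their medians, female and male livers drew most of their Cyp4a RNA from different genes. Cyp4a10 had a median level of 368 units in the 29 female control libraries (lowest 65.1, highest 5229) and of 35.8 in the 30 male ones (2.29 to 442). Cyp4a12a had a median of 0.898 in female (0.0971 to 189) and 477 in male control libraries (236 to 683). Of the summed FPKM-like values of the 6 members in a library, Cyp4a10 made up a median of 62.7% in control females and 5.26% in control males. Cyp4a12a made up 0.15% and 61.2%. Cyp4a14 had a median share of 22.4% in females, against 0.812% in males, and Cyp4a12b of 17.7% in males, against 0.0442% in females. These medians hide strain differences. Over single control males the share was 30.0% to 80.4% for Cyp4a12a, 0.412% to 29.8% for Cyp4a10 and 0.0347% to 39.6% for Cyp4a14. Over single control females the share was 27.4% to 87.2% for Cyp4a10 and 0.452% to 66.3% for Cyp4a14, whose mean level exceeded that of Cyp4a10 in CC011 (558 against 269 units) and CC041 (698 against 475). Cyp4a32 and Cyp4a31 were minor in both sexes, with median shares of 6.21% and 1.61% in females and 2.95% and 0.308% in males. The table also lists Cyp4a29, at 0 in 107 libraries, and Cyp4a30b, at 0 in 91 and at most at 5.25 units, which are no members.

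On the control diet all 6 members differed between the sexes, with Cyp4a12a and Cyp4a12b higher in males and the other 4 higher in females. Of all tested genes, 43.5% were called in this comparison, 24.8% as higher in males and 18.8% as lower, so a call alone is common. Cyp4a12a was higher in males by 7.15 ± 0.16 on the log2 scale (SE, adjusted p = 3.54e-54), and Cyp4a12b by 6.04 ± 0.14 (adjusted p = 2.86e-54). The male minus female differences of the other 4 were -3.31 ± 0.29 for Cyp4a10 (adjusted p = 2.16e-16), -3.14 ± 0.36 for Cyp4a14 (5.59e-12), -1.90 ± 0.17 for Cyp4a31 (1.70e-16) and -0.82 ± 0.19 for Cyp4a32 (0.000255). On the HF/HS diet, where 45.4% of genes were called, the same 6 calls stood. The differences were 6.36 for Cyp4a12a, 5.77 for Cyp4a12b, -2.28 for Cyp4a10, -2.63 for Cyp4a14, -1.46 for Cyp4a31 and -0.52 for Cyp4a32. The last of these had an adjusted p of 0.0201 and lost its call in 10 of the alternatives, among them when CC042 was left out (-0.38, adjusted p = 0.132).

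**Figure D1:**
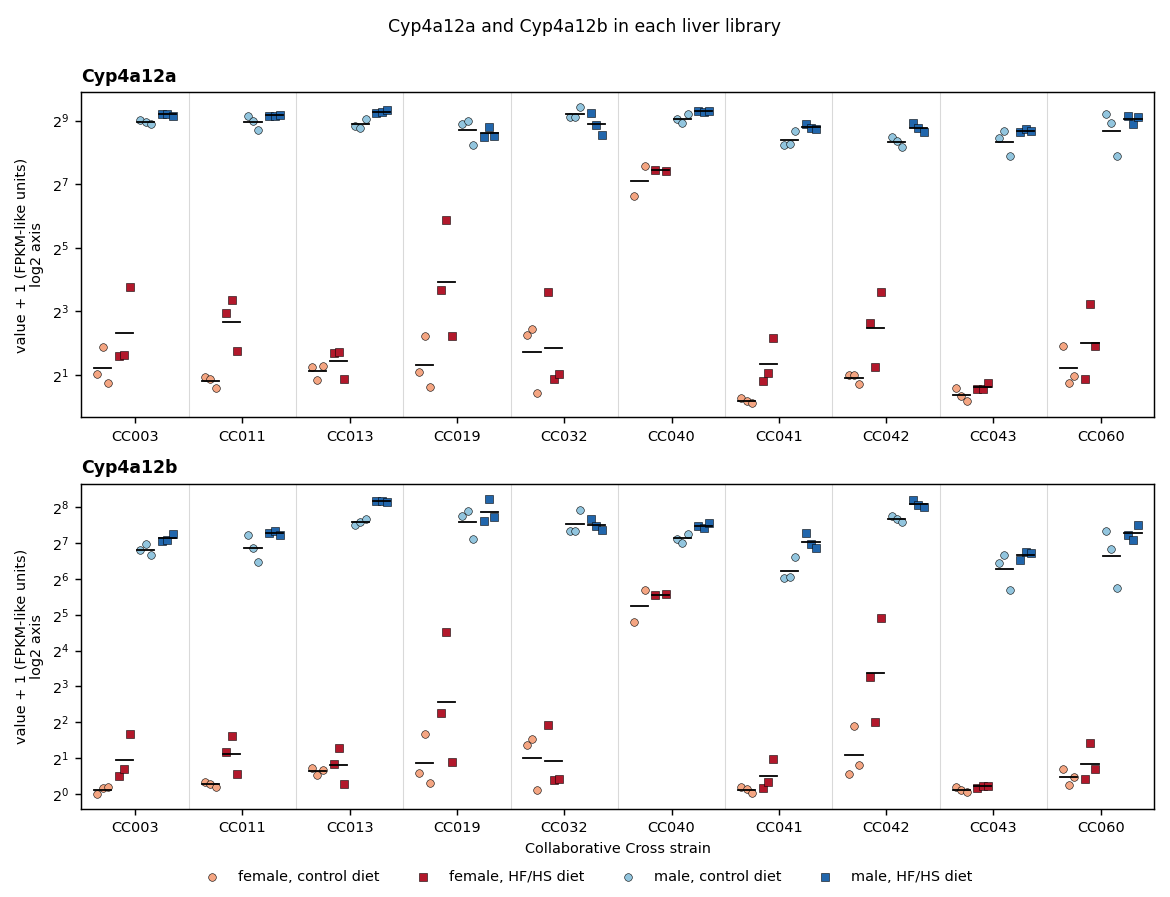
Cyp4a12a (top) and Cyp4a12b (bottom) in each library, as value + 1 in FPKM-like units on a log2 axis, by strain, sex and diet. Points are libraries and black lines are means of log2(value + 1) in a group. Male libraries lie between 236 and 683 for Cyp4a12a, and the 4 CC040 female libraries, at 99 to 189, stand apart from all other females.

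Cyp4a12a, the arachidonic acid hydroxylase of the male liver, was at 236 units or more in every male library. Male control means ran from 325 units in CC042 to 596 in CC032, and neighbouring strains in that order overlapped in their ranges. The F test over 8 strains did not call Cyp4a12a in control males (adjusted p = 0.533), where 70.2% of genes were called. This test uses a spread shared by all groups (SD 0.63), above the 0.32 of control males, so it could miss differences there. In females the same F test called Cyp4a12a (adjusted p = 4.54e-17, with 67.2% of genes called), and that call was lost without CC040 (0.107).

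CC040 females expressed the male-biased pair. Their Cyp4a12a values were 99.0 and 189 on the control diet and 172 and 171 on the HF/HS diet. In the 27 control females of the 9 other strains the median was 0.825 and the highest value was 4.46. The groups do not overlap. Against the mean of 7 other strains, CC040 control females were higher in Cyp4a12a by 6.19 ± 0.47 (adjusted p = 8.47e-19), where 15.9% of genes were called, and in Cyp4a12b by 4.68 ± 0.39 (adjusted p = 1.77e-16). Cyp4a12b was at 27.1 and 51.2 in these libraries on the control diet, against at most 2.75 in the other females. Summed Y-linked RNA (Uty, Kdm5d, Ddx3y and Eif2s3y) in the 4 CC040 female libraries was 0.0203% to 0.182% of the male median, and Xist, the RNA that marks an inactive X chromosome, was at 60.4 to 99.2 against at most 2.1 in male libraries. Within CC040, males were still higher by 1.87 ± 0.49 for Cyp4a12b (adjusted p = 0.0194, lost in 5 alternatives), and the difference of 1.96 ± 0.57 for Cyp4a12a missed the threshold (0.0561). Cyp4a12a was called in each of the other 9 strains, with differences of 7.39 to 8.20. Without CC040, neither member was called for a sex difference that depends on strain (adjusted p = 0.966 for Cyp4a12a and 0.937 for Cyp4a12b).

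At the low end, Cyp4a12a was at 0.201, 0.127 and 0.0971 in CC041 control females and at 0.501, 0.278 and 0.145 in those of CC043. The differences from the mean of 7 other strains, which includes CC040, were -1.72 ± 0.39 (adjusted p = 0.000638) and -1.5 ± 0.39 (0.00268), where 19% and 19.7% of genes were called. Without CC040 they were -0.85 (0.146) and -0.63 (0.306), and neither was called. Cyp4a12b was also called lower in both strains, and in neither without CC040 (0.296 and 0.29).

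**Figure D2:**
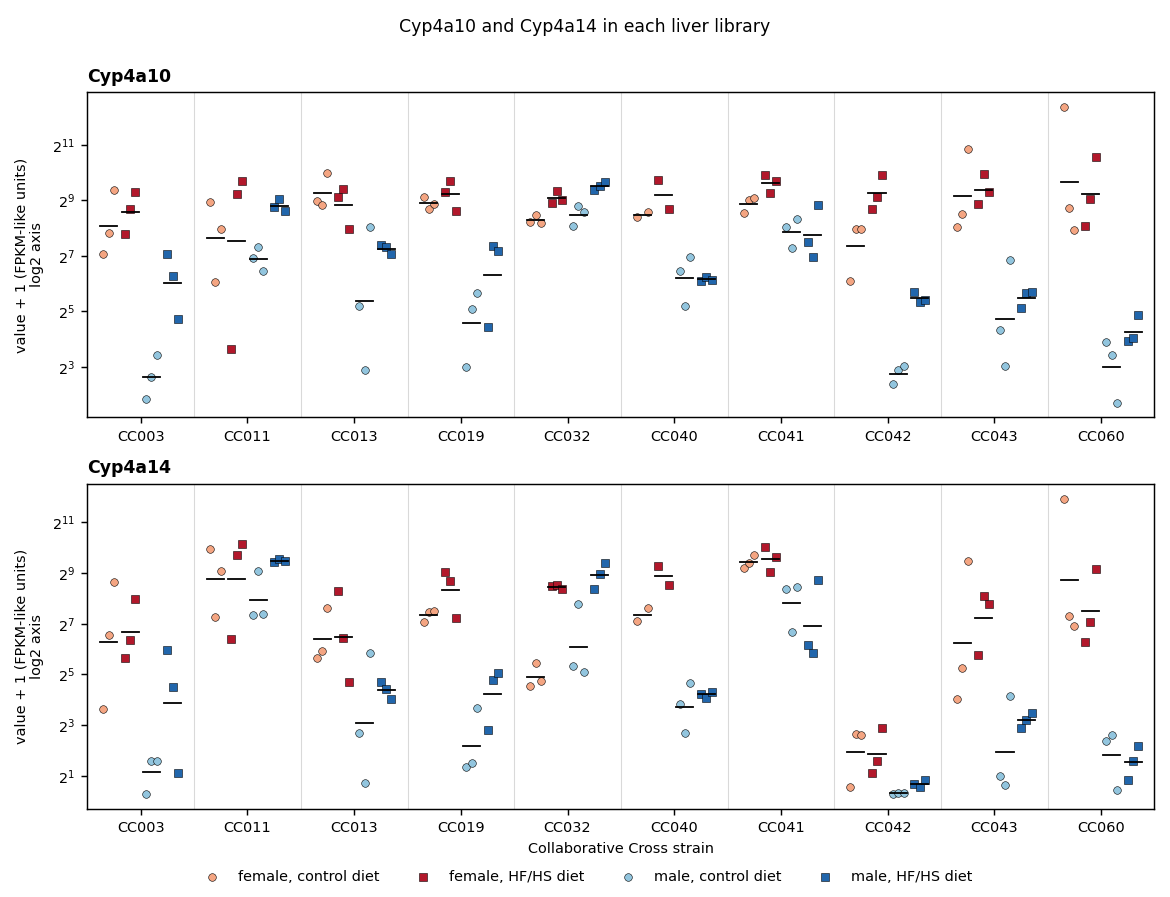
Cyp4a10 (top) and Cyp4a14 (bottom) in each library, as value + 1 in FPKM-like units on a log2 axis, by strain, sex and diet. Points are libraries and black lines are means of log2(value + 1) in a group. Cyp4a10 control males range from 2.29 to 442 units, CC032 males overlap their females on the control diet, and Cyp4a14 is at most 6.47 in all CC042 libraries.

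The female excess of Cyp4a10 depended on strain (F test adjusted p = 0.000163, with 12.4% of genes called). It was called in 6 of 10 strains, with a difference of -5.44 ± 0.92 in CC003 and of -6.64 ± 0.92 in CC060, and not in CC011, CC032, CC040 and CC041. Those 4 strains had 4.51%, 4.59%, 1.71% and 5.15% of genes called between the sexes. The share was 9.81% in CC003, 5.56% in CC013, 7.23% in CC019, 9.57% in CC042, 6.62% in CC043 and 33.4% in CC060. In CC032, control males had 271, 442 and 378 units and control females 300, 353 and 292. These ranges overlap, and the male minus female difference was 0.18 ± 0.92. On the HF/HS diet, CC032 males had 665, 739 and 814 units and females 476, 646 and 521, so all 3 males lay above the females. That difference within CC032 was not tested. In CC003, control males had 2.64, 5.24 and 9.79 units and females 132, 226 and 662. Among control males, CC032 was above the mean of 7 other strains by 2.99 ± 0.70 (adjusted p = 0.000571) and CC041, with 262, 154 and 319 units, by 2.30 ± 0.70 (0.00885, with 27.8% of genes called), a call lost in 2 alternatives (up to 0.0964). CC042 males, with 4.18, 6.33 and 7.22 units, had a difference of -3.55 ± 0.70 (4.07e-05). Among control females, the F test over 8 strains did not call Cyp4a10 (adjusted p = 0.386), and all neighbours in the order of strain means overlapped.

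Cyp4a14, whose coding sequence shares no 75-base window with another member, differed between strains in both sexes. Its sex difference depended on strain (adjusted p = 0.00164), a call that was lost without CC032 (0.0569). In control males it was at 160, 540 and 168 units in CC011 and at 335, 102 and 345 in CC041. These 2 strains were above the mean of 7 others by 4.35 ± 0.84 (adjusted p = 4.83e-05, with 16.2% of genes called) and 4.24 ± 0.84 (5.80e-05). In the other strains apart from CC032 no male control library exceeded 56.2. The same 2 strains were high in control females, at 975, 155 and 544 in CC011 (2.54 ± 0.84, adjusted p = 0.0267, with 16.5% of genes called, and lost in 4 alternatives) and at 588, 670 and 835 in CC041 (3.30 ± 0.84, 0.0027). On the control diet a sex difference of Cyp4a14 was called in 4 of 10 strains. CC011 and CC041 were not among them (-0.83 ± 1.11 and -1.59 ± 1.11). In CC041 the control males still lay wholly below the control females (ratio of means 0.374), while in CC011 the ranges overlapped (0.518).

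Cyp4a32, a near copy of Cyp4a10, was high in CC032 males, at 97.0, 105 and 184 units on the control diet. Against the mean of 7 strains that was higher by 2.43 ± 0.45 (adjusted p = 1.50e-05). Without CC032, no strain difference of Cyp4a32 was called in control males (adjusted p = 0.558). Cyp4a10, Cyp4a14 and Cyp4a31 were also called higher in CC032 control males, which makes 4 of the 6 members, where 13.4% of all genes were called higher. Cyp4a31 was at 5.49, 7.64 and 7.53 in these libraries, a difference of 1.13 ± 0.40 (0.0273). The call of Cyp4a31 was lost in 4 alternatives (up to 0.272) and that of Cyp4a14 in 13 (up to 0.598). Within CC032, males lay above females in Cyp4a32 on both diets without overlap (ratios of means 2.11 and 3.11). The female excess of Cyp4a32 on the control diet was called in 1 of 10 strains, CC060, and a male excess in 0. The CC060 call was lost in 3 alternatives, among them without CC060 female control library 1 (0.0778).

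One control library stood far above the rest of its group. In CC060 control females, Cyp4a10 was at 5229, 418 and 240 units, Cyp4a14 at 3937, 158 and 119, Cyp4a32 at 529, 82.4 and 67.9, and Cyp4a31 at 60.4, 7.10 and 5.31. Library 1 held the highest values of Cyp4a10, Cyp4a14 and Cyp4a32 among all libraries kept. Acot1, which cuts long acyl-CoA and is a PPAR-alpha target, was at 119, 31.1 and 16.5 in the same libraries. Without library 1, the control sex difference of Cyp4a10 was -3.18 (adjusted p = 2.74e-16). Within CC060 it was -5.30 for Cyp4a10 and -5.30 for Cyp4a14, against -6.64 and -6.91 with library 1.

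**Figure D3:**
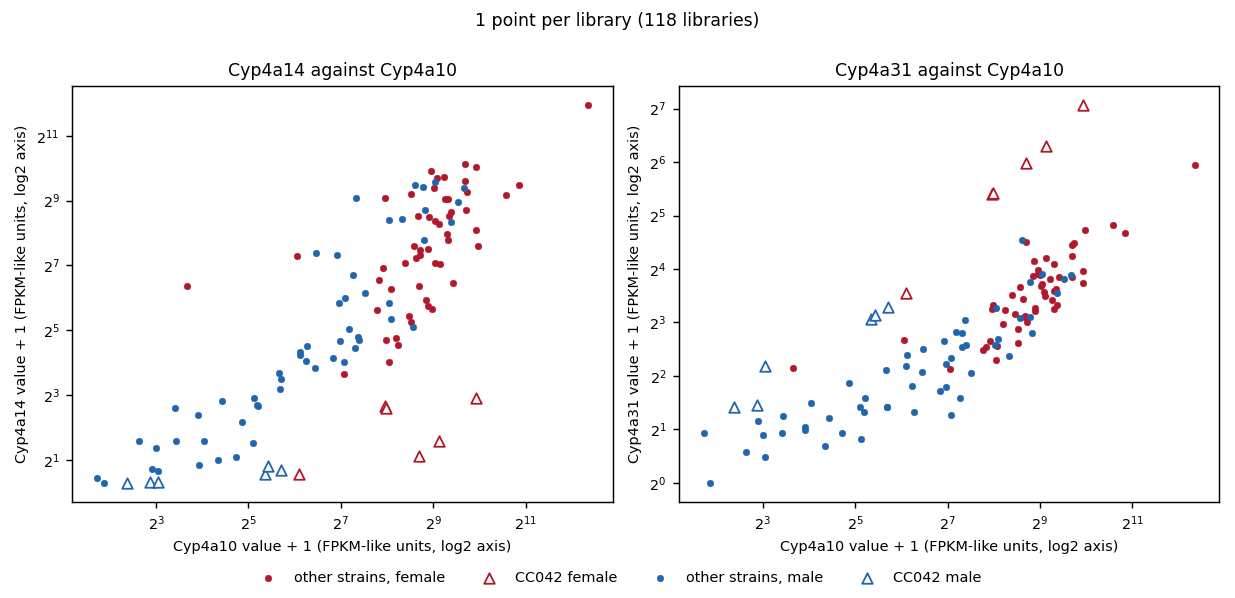
Cyp4a14 against Cyp4a10 (left) and Cyp4a31 against Cyp4a10 (right), with 1 point per library, as value + 1 in FPKM-like units on log2 axes. CC042 libraries (triangles) lie below most of the other strains' libraries for Cyp4a14, with a median of 0.00689 units of Cyp4a14 per unit of Cyp4a10 in females. They lie above most of them for Cyp4a31, with 0.154.

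CC042 livers had almost no Cyp4a14 while other members were present. Control females had 0.481, 5.30 and 5.04 units and control males 0.223, 0.251 and 0.236. On the HF/HS diet the values were 1.18, 1.96 and 6.47 in females and 0.602, 0.473 and 0.766 in males. Every other strain had a female mean of at least 30.4 on the control diet. Against the mean of 7 other strains, the differences were -5.27 ± 0.84 in females (adjusted p = 7.04e-07) and -4.37 ± 0.84 in males (2.82e-05), where 20.4% and 23.5% of genes were called. Cyp4a10 in the same CC042 control females was at 67.7, 248 and 253 units, and its difference from the other strains was not called. The Cyp4a14 level per unit of Cyp4a10 had a median of 0.00689 in the 6 CC042 females. The medians of the other strains' females lay between 0.128 and 2.08. Over single females it was at most 0.0213 in CC042 and at least 0.0577 in the other strains.

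Cyp4a31 was high in CC042 females. CC042 control females had 10.7, 41.2 and 41.8 units of Cyp4a31, and HF/HS females 62.4, 77.9 and 133. On the control diet the difference from 7 other strains was 1.20 ± 0.40 (adjusted p = 0.023), a call lost in 4 alternatives (up to 0.322). In CC042 control males, with 1.67, 1.76 and 3.55 units, Cyp4a31 was not called against the other strains. The median of Cyp4a31 per unit of Cyp4a10 was 0.154 in CC042 females and 0.0149 to 0.0322 in females of the other strains. In males it was 0.232 in CC042 and 0.0153 to 0.0939 elsewhere. Cyp4a10 was itself called lower in CC042 control males, so the male ratio does not show a high Cyp4a31. Cyp4a32 per unit of Cyp4a10 was also highest in CC042. Its medians there were 0.320 in females and 3.48 in males, against at most 0.215 and 2.70 in the other strains. The strain call for Cyp4a31 in control females (adjusted p = 0.0278) was lost in 5 alternatives, among them without CC042 (0.218) and without the second control library of each strain (0.40). Cyp4a12b per unit of Cyp4a12a was also high in CC042, with medians of 1.92 in females and 0.618 in males, against 0.188 to 0.433 and 0.227 to 0.508 in the other strains. These ratios are between genes that share windows, so they are given as values with no test. That of Cyp4a14 is between genes whose coding sequences have no window in common.

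Cyp4a RNA rose on the HF/HS diet, and in males more members were called than in females. Over both sexes all 6 rose, with 32.6% of genes called in that comparison and 17.2% called higher. The differences were 0.94 ± 0.21 for Cyp4a10 (adjusted p = 0.00023), 0.88 ± 0.25 for Cyp4a14 (0.00419), 0.62 ± 0.12 for Cyp4a12a (1.46e-05), 0.55 ± 0.10 for Cyp4a12b (4.68e-06), 0.44 ± 0.12 for Cyp4a31 (0.00252) and 0.38 ± 0.14 for Cyp4a32 (0.0233). The median difference of the members was 0.59, against 0.00 over all tested genes. Cyp4a14 lost its call without CC032 (0.63, adjusted p = 0.0786) and Cyp4a31 without CC042 (0.32, 0.0516). Cyp4a32 lost it in 8 alternatives, among them without the second library of female HF/HS groups (0.30, 0.135).

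**Figure D4:**
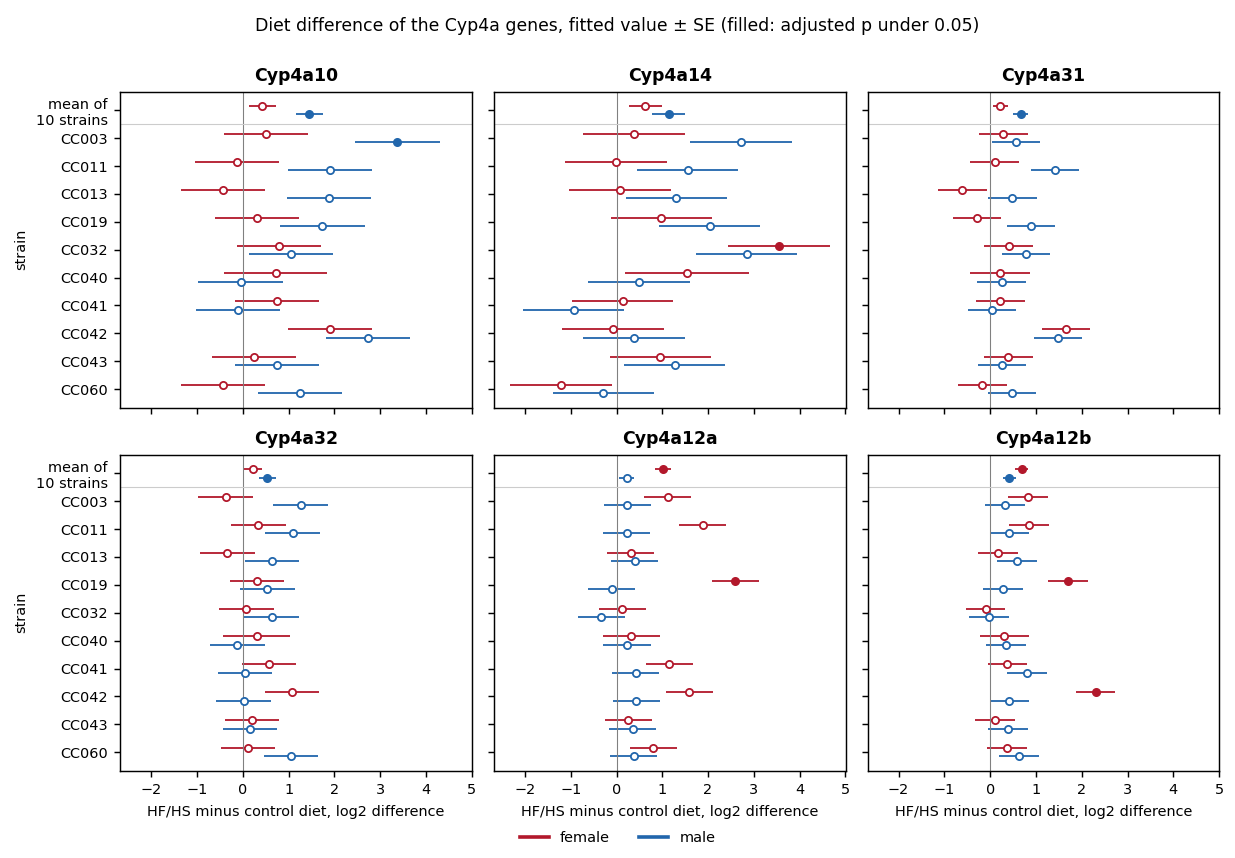
HF/HS minus control difference of each Cyp4a gene on the log2(value + 1) scale, as fitted value ± SE, for the mean of 10 strains and for each strain, in females (red) and males (blue). Filled points have an adjusted p under 0.05. Cyp4a10 in males (1.45) and Cyp4a12a in females (1.01) are filled among the means, and few single strains are.

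In males 5 of 6 members rose, where 11% of all genes rose. Cyp4a10 ranged from 2.29 to 442 units on the control diet and from 14.2 to 814 on the HF/HS diet, with overlap, and its difference was 1.45 ± 0.29 (adjusted p = 8.14e-05). It was positive in 8 of 10 strains. In CC003 it went from 2.64, 5.24 and 9.79 to 134, 75.8 and 25.4, with no overlap and a difference of 3.38 ± 0.92 (adjusted p = 0.0144, in a comparison with 6.25% of genes called). That call was lost with library weights (0.16) and without control library 1 (0.0955) or HF/HS library 1 (0.104) or 2 (0.0688). CC042 males went from 4.18, 6.33 and 7.22 to 51.1, 39.8 and 42.1, also without overlap, and that difference of 2.73 was not called (adjusted p = 0.0726, with 4.34% of genes called). CC040 males had 86.0, 35.6 and 125 on the control and 67.9, 74.4 and 68.3 on the HF/HS diet, which overlap. Cyp4a31 rose by 0.66 ± 0.17 (0.00182) and was positive in all 10 strains. Cyp4a14 rose by 1.14 ± 0.35 (0.0126), Cyp4a32 by 0.53 ± 0.19 (0.0332) and Cyp4a12b by 0.42 ± 0.14 (0.0198). Cyp4a12a was the member with the highest median level in males. Over single HF/HS males its share of the 6 members was 16.3% to 74.1%, and that of Cyp4a10 was 1.87% to 35.4%. Cyp4a12a had medians of 477 and 516 and a difference of 0.22 ± 0.16 that was not called (adjusted p = 0.368). That SE comes from a spread shared by all groups. The SD within groups was 0.32 in control and 0.14 in HF/HS males, against 0.57 and 1.10 in females. The SE is therefore wide for males, and the missing call does not show that Cyp4a12a was unchanged in them. HF/HS males lay wholly above control males in 6 of 10 strains and overlapped them in 4. The calls in males were lost in 12 alternatives for Cyp4a32 (adjusted p 0.053 to 0.21), in 7 for Cyp4a12b (0.0592 to 0.162) and in 6 for Cyp4a14 (0.0502 to 0.123), mostly when 1 strain or 1 library number was left out. Those of Cyp4a10 (0.10) and Cyp4a31 (0.0615) were lost with the strain as the unit alone, a fit that called 1.04% of all genes.

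In females 2 of 6 members rose, Cyp4a12a by 1.01 ± 0.17 (adjusted p = 3.81e-06) and Cyp4a12b by 0.69 ± 0.14 (0.000206), where 9.59% of all genes rose. Both rose from a low level. Their SEs use the shared spread, which is below that of HF/HS females (SD 1.10 for Cyp4a12a and 0.89 for Cyp4a12b). Cyp4a12a had medians of 0.898 units on the control and 2.35 on the HF/HS diet, far below the 477 of control males, and its difference was positive in all 10 strains. The largest was in CC019, where it went from 1.14, 3.72 and 0.538 to 11.6, 57.6 and 3.65 (2.60 ± 0.51, adjusted p = 0.000891, with 0.991% of genes called). These ranges overlap by a narrow margin. In CC042, Cyp4a12b went from 0.464, 2.75 and 0.738 to 8.54, 3.0 and 28.8, which do not overlap (2.30 ± 0.44, adjusted p = 0.000504, with 1.29% of genes called).

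RNA of Y-linked genes, which female cells lack, stood out in some of these libraries. Summed over 4 Y-linked genes, it was above 1% of the male median in 3 of 29 female HF/HS libraries and in 0 of 29 female control libraries. The 3 were CC019 library 2 (4.46%, Cyp4a12a at 57.6), CC011 library 2 (2.06%, 9.17) and CC032 library 1 (1.08%, 11.1). Without them the rise in females was 0.80 for Cyp4a12a (adjusted p = 2.46e-05) and 0.52 for Cyp4a12b (0.00153). Within CC019, the Cyp4a12a difference was then 1.62 and not called (0.121). The CC042 female libraries, where Cyp4a12b was called, had Y-linked RNA of 0.0261% to 0.593% of the male median. The fit without libraries with Y-linked RNA leaves out only the 3 above the cut. The median was 0.0835% in control and 0.119% in HF/HS females. In CC032 control females, 0.937%, 0.724% and 0.0458% went with Cyp4a12a at 3.83, 4.46 and 0.361. In CC042 HF/HS females, 0.593%, 0.163% and 0.191% went with 5.19, 1.37 and 11.1. The part of Y-linked RNA below the cut in the rise was not tested.

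The 4 members that dominate or are higher in females did not pass the test there. The difference was 0.42 ± 0.30 for Cyp4a10 (95% interval -0.17 to 1.02, adjusted p = 0.349), 0.63 ± 0.36 for Cyp4a14 (-0.09 to 1.35, 0.228), 0.22 ± 0.17 for Cyp4a31 (-0.12 to 0.56, 0.397) and 0.23 ± 0.19 for Cyp4a32 (-0.16 to 0.61, 0.448). These intervals leave room for rises as large as some of those in males. With library weights, which called 32.2% of all genes, the 4 were called at 0.73, 0.88, 0.40 and 0.44. CC032 was the 1 strain with a called Cyp4a14 difference in females. There Cyp4a14 went from 22.4, 42.7 and 26.0 to 363, 366 and 329, without overlap (3.55 ± 1.11, adjusted p = 0.04998, with 4% of genes called). That call was lost in 18 alternatives with the difference at 3.36 to 3.81. In CC032 males it went from 39.3, 218 and 33.2 to 327, 500 and 673, and the difference of 2.84 was not called (adjusted p = 0.26, with 1.66% of genes called).

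The diet difference itself was not shown to depend on sex. The male minus female diet difference was called for 0 of 6 members by limma, where 0.877% of genes were called, and at an unadjusted p under 0.05 for 2. These were Cyp4a12a, at -0.79 ± 0.23 (adjusted p = 0.0828), and Cyp4a10, at 1.03 ± 0.42 (adjusted p = 0.302). Cyp4a12a was called as rising less in males with a pseudocount of 0.1 (-1.30, adjusted p = 0.0176), with library weights (-1.16, 0.000532) and without the third library of female HF/HS groups (-0.82, 0.0337). Without the 3 female libraries above the cut in Y-linked RNA the difference was -0.57 (0.179). Nor did the F tests for a diet difference that depends on strain call a member. The lowest adjusted p was 0.086, for Cyp4a12b in females, where 2.34% of genes were called. It was called in 5 alternatives, among them without the female libraries with Y-linked RNA (0.0225). In males, with 6.55% called, the lowest was 0.369 for Cyp4a10. Over both sexes, with 5.54% called, it was 0.245 for Cyp4a14. At an unadjusted p under 0.05, limma's tests held Cyp4a12a and Cyp4a12b in females, 0 members in males and Cyp4a14 over both.

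Summing the near-identical genes leaves the uncertain split of their reads aside. The sum of Cyp4a12a and Cyp4a12b had a median of 1.23 units in control females and 3.69 in HF/HS females. In CC040 it was 126 and 241 in the 2 control females.

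Libraries of the same group differed widely in these genes. The SD between libraries of a group was 1.13 on the log2 scale for Cyp4a10 and 1.36 for Cyp4a14, against a median of 0.196 over all tested genes. It was 0.74 for Cyp4a32, 0.65 for Cyp4a31, 0.63 for Cyp4a12a and 0.54 for Cyp4a12b. All 6 lay above the 94th percentile of tested genes, from 94.6 to 98.6. For Cyp4a12a the SD was 0.57 in control and 1.10 in HF/HS females, and 0.32 and 0.14 in males. The tests share a spread over groups, so the SEs of Cyp4a12a are too wide for males and too narrow for HF/HS females.

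Within groups, 2 sets of members moved together. Across all libraries kept, after each group's mean was taken out, Pearson's r was 0.88 between Cyp4a10 and Cyp4a14. The coding sequences of these 2 share no 75-base window. Pearson's r was 0.82 to 0.91 over the 6 pairs of Cyp4a10, Cyp4a14, Cyp4a31 and Cyp4a32. Cyp4a12a and Cyp4a12b had an r of 0.90, and r between the sets was 0.11 to 0.19. Points share the library and its scaling, and the near-identical genes share reads, so these correlations are descriptions.

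**Figure D5:**
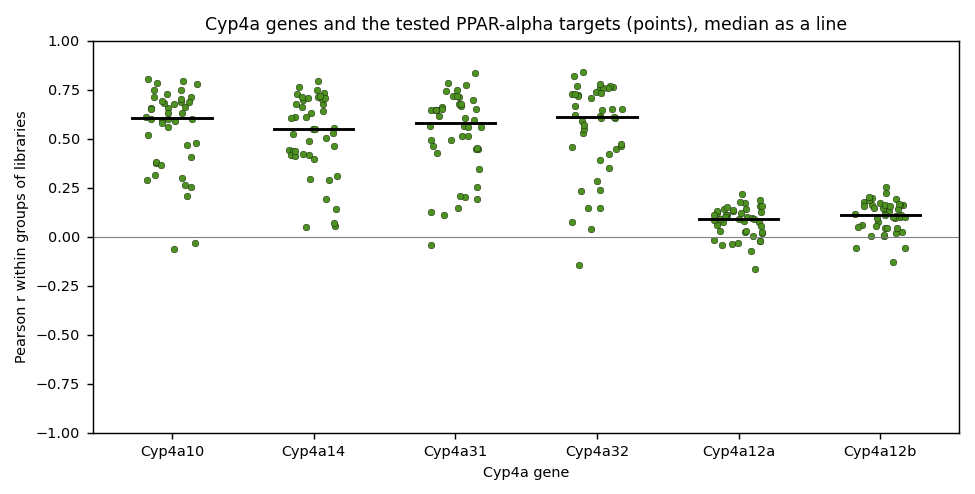
Pearson's r between each Cyp4a gene and each of 44 PPAR-alpha target genes (points) over all libraries kept, after the group means were removed, with the median as a line. The medians are 0.55 to 0.61 for Cyp4a10, Cyp4a14, Cyp4a31 and Cyp4a32, and 0.09 and 0.11 for Cyp4a12a and Cyp4a12b.

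The same libraries that were high in Cyp4a10 were high in other PPAR-alpha targets. Over 44 tested targets outside the family, the median within-group r was 0.61 with Cyp4a10, 0.55 with Cyp4a14, 0.58 with Cyp4a31 and 0.61 with Cyp4a32. Over all tested genes it was 0.01 with Cyp4a10 and 0.00 with Cyp4a14. With Cyp4a12a and Cyp4a12b the targets had medians of 0.09 and 0.11. An r above 0.5 with Cyp4a10 was found for 30 of the 44 targets and for 1.64% of all tested genes.

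On the HF/HS diet more targets rose in males than in females. In males 33 of 44 targets rose and 1 fell, with a median difference of 0.32. In females 10 rose and 1 fell, with a median of 0.11. Over all genes the medians were 0.00 in both sexes, and 11% rose in males and 9.59% in females. Among the targets with the lowest p in males, Aldh3a2, which oxidises the fatty aldehydes that follow omega-hydroxylation, rose by 1.16 ± 0.11 (adjusted p = 1.34e-13). Hsd17b11, a lipid-droplet dehydrogenase, rose by 0.68 ± 0.07 (6.20e-12). Acaa1a, the peroxisomal thiolase, rose by 0.60 ± 0.07 (3.33e-11) and Vnn1, a pantetheinase, by 1.36 ± 0.16 (2.00e-10). In females Acaa1a rose by 0.56 ± 0.07 (1.45e-09) and Acaa1b by 0.86 ± 0.16 (4.47e-05). The diet difference of Aldh3a2 was larger in males by 0.71 ± 0.16 (adjusted p = 0.0119), 1 of 2 targets called for that difference. On the control diet 25 targets were lower and 4 higher in males, with a median of -0.23, where 18.8% of all genes were lower and 24.8% higher. Acot3 and Acot4, which cut peroxisomal acyl-CoAs, had differences of -3.94 ± 0.26 and -1.77 ± 0.12, and Abcd2, a peroxisomal acyl-CoA transporter, of -3.10 ± 0.13.

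Of the genes that act after omega-hydroxylation, 14 tested genes of peroxisomal breakdown of dicarboxylic acids included 8 that rose and 1 that fell in males and 5 that rose in females. Crot, which makes carnitine esters for export from peroxisomes, rose by 0.56 ± 0.09 in males (adjusted p = 6.50e-07), and Hsd17b4, the peroxisomal bifunctional enzyme, by 0.30 ± 0.04 in males (4.29e-08) and 0.20 ± 0.04 in females (0.000762). Of 9 alcohol and aldehyde dehydrogenases between the 2 steps, 3 rose and 1 fell in males, and 2 rose and 1 fell in females. Adh7 was the 1 that fell in both (-0.16 ± 0.05 and -0.19 ± 0.05). None of the 4 electron donors of microsomal P450s was called in females, and 2 rose and 2 fell in males. Of 10 arachidonate P450 and epoxide genes, 5 rose in males and 4 in females, among them Ephx1, the microsomal epoxide hydrolase (0.78 ± 0.11 and 0.61 ± 0.11). Of 15 other Cyp4 genes 7 were tested. Cyp4f15 and Cyp4v3, hydroxylases of the same superfamily, rose in males (0.43 ± 0.07 and 0.26 ± 0.06) and in females (0.25 ± 0.07 and 0.31 ± 0.06), and Cyp4f17 rose in males (0.36 ± 0.07). Beside these counts, 11% of all tested genes rose and 9.93% fell in males, and 9.59% rose and 8.08% fell in females.

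Among PPAR-alpha and its partners, 12 genes, 3 rose and 2 fell in males and 1 rose and 1 fell in females. Pparg, the fat-storage relative of PPAR-alpha, rose in both sexes (0.66 ± 0.09 in males and 0.80 ± 0.09 in females), and Ppargc1a, a coactivator, fell in females (-0.46 ± 0.10). Of 11 tested neighbours of the cluster on chromosome 4, 1 rose and 2 fell in males and 0 rose and 2 fell in females. These counts are near the shares of all genes, 11% higher and 9.93% lower in males and 9.59% and 8.08% in females. Pdzk1ip1, a small membrane protein gene, fell by 1.54 ± 0.15 in males and 1.08 ± 0.15 in females.

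For the sexes, 22 of 25 tested male-biased liver genes were higher and 2 lower in males on the control diet, and 26 of 26 female-biased ones lower. There 24.8% of all tested genes were higher and 18.8% lower in males. Cyp2d9, a male-specific steroid hydroxylase, had a difference of 4.92 ± 0.10, and Cyp3a41a, a female-specific P450, of -7.91 ± 0.24. On the HF/HS diet 11 of the 26 female-biased genes fell and 1 rose in females, and 4 fell and 7 rose in males. Cyp3a44 fell in females (-0.91 ± 0.20) and rose in males (1.04 ± 0.20). Of the 25 male-biased genes, 4 rose and 5 fell in females, and 1 rose and 6 fell in males. In the growth hormone and sex steroid list of 15 genes, 1 rose and 3 fell in females and 1 rose and 1 fell in males. Cux2, a female-biased repressor, was 1 of the 3 that fell in females (-0.49 ± 0.14, adjusted p = 0.00735). With diet, 9.59% of all tested genes rose and 8.08% fell in females, and 11% rose and 9.93% fell in males. The counts of the growth hormone list in males are near these shares.

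Some markers of other cells also moved with diet. Of 6 macrophage markers 4 rose in females and 1 in males, and their summed level was 131 to 733 units in control and 168 to 880 in HF/HS females. Of 6 stellate cell markers 2 rose in each sex, and 0 of 5 endothelial markers was called in either. Cfd, the 1 tested fat marker of 4, rose in males by 1.05 ± 0.16 (adjusted p = 2.62e-07) and was not called in females, a difference called by the interaction (1.08 ± 0.23, 0.00504). The 4 fat markers summed to at most 13.4 units in control males and 402 in HF/HS males, where the median sum was 1.05. Cfd alone reached 402 units, against at most 10.0 for Retn, 4.90 for Adipoq and 1.03 for Plin1. Spp1, a bile duct marker, rose in both sexes (0.43 ± 0.11 in males and 0.40 ± 0.11 in females). Of 9 hepatocyte markers 4 fell in males and 3 in females. Of all tested genes 11% rose and 9.93% fell in males, and 9.59% rose and 8.08% fell in females. Of 14 periportal hepatocyte genes 9 fell in males and 5 in females, and of 15 pericentral ones 4 rose in males and 0 in females, 1 of them Cyp2e1 (0.33 ± 0.08 in males). The part of these shifts in the Cyp4a differences was not tested.

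The genes most like the members over the 40 group means were picked by Pearson's r, as a description over points that share sex and strain. For Cyp4a10 they were Nt5e (0.82), Acot1 (0.81), Maob (0.79), Prlr (0.78) and Acot2 (0.78). For Cyp4a12a they were Cyp2d9 (0.94), Cyp2d12 (0.93), Eif2s3y (0.93), Ttc39c (0.93) and Kdm5d (0.92), of which Eif2s3y and Kdm5d lie on the Y chromosome. For Cyp4a14 they were Inpp5b (0.76), Sun1 (0.72), Laptm4b (0.70), Ech1 (0.70) and Ash2l (0.68). Over the 20 diet differences, the genes most like Cyp4a10 were Retsat (0.85), Tmem129 (0.78), Eci1 (0.74), Gtf2h1 (0.74) and Zfp791 (0.73). Those most like Cyp4a14 were Atp1b1 (0.72), Kank3 (0.72), B3galnt1 (0.72), Nadsyn1 (0.72) and Mir6516 (0.70). Those most like Cyp4a12a were Eif2s3y (0.84), Trip4 (0.69), Mir6541 (0.67), Ncam2 (0.66) and Aldh1a1 (0.66).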

How the data were processed

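The table used held 120 liver libraries. The authors deposited FPKM-like values that they rescaled to a common 75th percentile (9.992 to 10.0 per library, from the values), not counts. Per the submitters' processing notes the build was mm10, and the tools were Cufflinks 2.2.1, TopHat2 2.1.1 and Bowtie2 2.2.5.0, with no role or order given. Per the labels' protocols, libraries were made from 500 ng of RNA with 2 stranded kits, 1 for mRNA and 1 that removes ribosomal RNA, without saying which library had which. Whether reads of strains that differ from the reference mapped less well was not tested. A value of 0 can be a failed estimate, since Alb was listed at 0 in 104 of 120 libraries. Depth is unknown.

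The 2 identical columns were left out. Values were used as log2(value + 1) and a gene was tested where its mean over the 120 libraries reached 1. limma 3.58.1 in R 4.3.3 fitted 40 group means with a trended, robust prior, and two-sided p-values were adjusted over 12205 genes. Strains on the control diet were compared over 8 strains. The sex difference within each strain and each strain against the 7 others were added after values were seen. On simulated data for the diet comparison in females (12205 genes), 91% of changes of 0.5 on the log2 scale and 99% of changes of 1 were recovered, and 5.47% of calls were false. The changed genes were drawn at random, with noise equal in every group. The members spread more (SD 0.54 to 1.36, against a median of 0.196 over tested genes), so these rates do not apply to them. Coding sequences came from GENCODE M21 and were aligned with Biopython.

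The members, lists, tests and rules were chosen with earlier results of these data known. All 6 members are named in every comparison, list genes by up to 4 lowest p, and like genes by the 5 highest r. CC060 library 1 and the libraries with Y-linked RNA, with the Acot1 values, were singled out after their values were seen, as were Aldh3a2's sex difference and the ratios in CC042. Alternatives covered pseudocounts, filters, scalings, priors, weights, blocks, left-out strains and left-out libraries.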

Additional observations from a re-analysis of the deposited data

Results flagged for a closer look

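The sex difference on the control diet depended on strain for 5 of the 6 members, by limma's F test of that difference itself. The adjusted p was 1.86e-08 for Cyp4a12a and 9.27e-08 for Cyp4a12b, the pair that CC040 females expressed. It was 0.000163 for Cyp4a10, 0.00164 for Cyp4a14 and 0.0193 for Cyp4a31, which were higher in females in most strains. The male minus female difference ran from 1.96 in CC040 to 8.20 in CC041 for Cyp4a12a, from -6.64 in CC060 to 0.18 in CC032 for Cyp4a10, and from -6.91 in CC060 to 1.15 in CC032 for Cyp4a14. Without CC060 female control library 1 the CC060 differences were -5.30 for both, and the low end for Cyp4a10 was then -5.44 in CC003. For Cyp4a31 it ran from -3.10 in CC042 to -0.15 in CC032. The Cyp4a31 call was lost in 5 alternatives (0.0568 to 0.193). Cyp4a32 was not called (adjusted p = 0.0736) and was in 4 alternatives (0.00226 to 0.0447). Of all tested genes, 12.4% were called.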

How the results depend on the processing

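The sex difference on the control diet was called in the same direction for all 6 members under every alternative run. The number of members that rose in females (2) was 6 with library weights, a fit that called 32.2% of all genes, and 0 with the strain as the unit, which called 0% of genes. In males (5 rose) it was 3 without the CC003 and CC060 libraries, 3 without CC032, 1 with the strain as the unit and 2 to 5 when 1 library number was left out. For the difference of the diet effect between the sexes (0 members lower), 1 was lower with a pseudocount of 0.1, 1 with library weights, and 0 to 1 when 1 library number was left out. Cyp4a12b reversed there with a pseudocount of 5 (0.079 against -0.27, neither called). For diet effects that differ between strains (0 members in each), library weights gave 3 in females, 4 in males and 3 over both. In females it was 1 without CC019, 1 without the female libraries with Y-linked RNA, and 0 to 2 when 1 library number was left out. For a sex difference that depends on strain (5) it was 3 without CC032 and 3 without CC040. For strains on the control diet it was 2 without CC040 in females (4) and 3 without CC032 in males (5), where leaving out 1 library number gave 3 to 5. The causes of these moves were not tested. The fits that leave out strains or libraries also use fewer libraries. Leaving out CC060 female control library 1, the female libraries with Y-linked RNA, or CC019 female HF/HS library 2 was chosen after seeing the data. The library numbers did not pair the samples. Over 58 same-numbered pairs of control and HF/HS libraries of a strain and sex, the correlation of deviations had a median of -0.01 (-0.22 to 0.36), and 20 of 57 control libraries correlated best with their own number. With the replicate block (consensus correlation 0.0236), 2 members rose in females and 5 in males, as without it, and every other count of called members was also unmoved. Sums over near-identical genes were computed as values with no test.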
